A study of Rattus norvegicus with 9 samples.

Results

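Cd163, Mrc1, Lyz2, Gpnmb, C3 and Cd68 are genes of the macrophages that line the brain's borders and of innate immunity, and they were followed here in the hypothalamus of 9 rats. Members were taken by name: each listed symbol had to be the only symbol that the platform annotation gives to a probe set. All 6 genes were found, with 1 probe set each, among 14217 genes named on the array. Expression was measured on Affymetrix rat arrays, 1 array per rat, in male rats of unstated strain aged 13 weeks. The noodle-diet group held 4 rats (numbers 1, 4, 7 and 13), which ate a diet with 30% instant noodle by weight and 26% of its energy as fat. The control group held 5 rats (2, 5, 8, 11 and 14), which ate the same diet with the seasonings left out. The labels give the feeding time as 30 days in one place and 4 weeks in another, with intake matched between diets at about 60 g of food per kg body weight a day. The seasonings are the only difference between the diets that the study's text names.

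Macrophages of the brain's borders sit in the meninges and along blood vessels, outside the neural tissue proper. They take up debris and plasma proteins and are told from parenchymal microglia by scavenger receptors such as CD163 and the mannose receptor MRC1. Complement component C3 is the protein on which all complement pathways converge, and its fragments mark particles for uptake by phagocytes. Ogn (osteoglycin, a small leucine-rich proteoglycan) and Col1a2 (a chain of type I collagen) are matrix genes of meningeal fibroblasts and serve as the comparison.

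The start regions of the 3 members whose values moved between rats are shown because the genes most like each of them, described further on, differed. Whether the sequences bear on that likeness was not tested. They are the 250 bases before the RefSeq gene start in the rat assembly GRCr8, written along the strand of the gene, for Lyz2 (chr7:54798012-54798261, minus strand), Gpnmb (chr4:79340878-79341127, plus strand) and C3 (chr9:2201340-2201589, minus strand). Capitals mark letters that match any of 3 motifs, searched on both strands.

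Lyz2: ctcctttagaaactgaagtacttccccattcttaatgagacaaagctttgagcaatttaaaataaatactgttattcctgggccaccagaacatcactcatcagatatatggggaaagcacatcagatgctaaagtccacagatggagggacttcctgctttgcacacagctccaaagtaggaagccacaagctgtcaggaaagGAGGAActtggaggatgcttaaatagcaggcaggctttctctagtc
Gpnmb: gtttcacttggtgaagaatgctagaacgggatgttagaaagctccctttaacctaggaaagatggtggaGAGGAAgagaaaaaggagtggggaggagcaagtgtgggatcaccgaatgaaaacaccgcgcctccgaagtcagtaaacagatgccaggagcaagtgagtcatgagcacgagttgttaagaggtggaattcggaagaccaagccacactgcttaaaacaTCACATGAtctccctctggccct
C3: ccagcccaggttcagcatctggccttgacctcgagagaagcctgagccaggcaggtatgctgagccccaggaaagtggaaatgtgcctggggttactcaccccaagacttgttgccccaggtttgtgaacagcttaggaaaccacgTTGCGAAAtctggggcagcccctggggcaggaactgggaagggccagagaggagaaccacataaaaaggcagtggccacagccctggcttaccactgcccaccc

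The motif GAGGAA, the core bound by ETS factors such as PU.1 of myeloid cells, was found at position -46 from the start of Lyz2 and at -181 of Gpnmb. It lay in 23.3% of the 33469 start regions of the same length. Among the members not shown it was also found in Mrc1 (at -180 and -35) and Cd68 (at -27), but not in Cd163. The M-box TCACATGA, a form bound by MITF and TFE factors, was found at -23 of Gpnmb and lay in 0.977% of regions. The C/EBP-like TTGCGAAA was found at -104 of C3 and lay in 0.182% of regions. The motifs were picked with these sequences in view, and a match describes letters only.

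Of the 6 members, 3 varied between rats and 3 did not. Lyz2, Gpnmb and C3 ranged over 0.76 to 1.41 log2 units across the 9 rats. Cd163, Mrc1 and Cd68 ranged over 0.000527 to 0.00122 log2 units. Most of the deposited table behaves like the latter, with 95.9% of the 31042 probe sets ranging over less than 0.01 (called compressed here) and 3.94% over more than 0.05 (called variable). Differences that small are given as values only, so the account rests on Lyz2, Gpnmb and C3, none of which is made by macrophages alone.

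The matrix genes varied widely between rats of the same diet. Ogn, by its probe set of largest range, read 7.70, 5.96, 5.81 and 6.76 in noodle-diet rats 1, 4, 7 and 13, and 6.97, 6.90, 7.43, 5.80 and 5.55 in control rats 2, 5, 8, 11 and 14. Col1a2 read 9.005, 7.96, 7.78 and 8.40 on the noodle diet and 8.81, 8.59, 8.82, 7.69 and 7.59 on the control diet, and put the rats in the same order. The high rats were noodle-diet rats 1 and 13 and control rats 2, 5 and 8, so both diets held high and low animals. Between the 5 high and the 4 low rats lay a gap of 0.81 in Ogn (37.4% of its range, next gap 0.46) and of 0.44 in Col1a2 (31.1%, next gap 0.22). With fewer than 6 rats on either side of it, relations inside each side were not tested. In tissue samples like these, fewer cells of a type and less RNA per cell cannot be told apart.

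Lyz2, the lysozyme of macrophages and granulocytes, rose and fell with the matrix genes. It read 9.28, 8.90, 8.63 and 8.89 in noodle-diet rats 1, 4, 7 and 13, and 9.09, 9.21, 9.11, 8.55 and 8.50 in control rats 2, 5, 8, 11 and 14. Noodle-diet rat 1 was highest and control rats 11 and 14 lowest, as in Ogn and Col1a2. Over the 9 rats its Pearson r with Ogn was 0.92 (exact 2-sided permutation p = 0.00114, adjusted p = 0.00341 over 6 relations) and its Spearman rho 0.93 (exact permutation p = 0.00075, adjusted 0.00225). With Col1a2, r was 0.95 (exact permutation p = 0.000422, adjusted 0.00253) and rho 0.93 (exact permutation p = 0.00075, adjusted 0.00225). A log2 unit of Col1a2 went with 0.51 log2 units of Lyz2, and the rats scattered about that line with an SD of 0.099. Noodle-diet rat 4 and control rat 5 lay farthest above it, by 0.16 and 0.15.

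The relation of Lyz2 to the matrix genes kept its sign and its call in every alternative run. Without control rats 11 and 14, the pair farthest from the median of Ogn and Col1a2, r was 0.87 with Ogn (exact permutation p = 0.00992, adjusted 0.0298) and 0.90 with Col1a2 (exact permutation p = 0.00456, adjusted 0.0274). With the diet means removed it was 0.92 and 0.95 (exact permutation within diets, adjusted p = 0.0229 for both). Over the 4 probe sets of Ogn it lay between 0.92 and 0.95, and over the 2 of Col1a2 between 0.95 and 0.96. Of the variable probe sets of other genes, 11.3% had an r of 0.9 or higher with Ogn and 11.5% with Col1a2, and of the 3 variable members only Lyz2 did. The array medians, which spanned 6.777 to 6.785, followed Ogn too (r = 0.99 as a description). With every array set to a common median the r of Lyz2 was 0.92 with Ogn and 0.95 with Col1a2. The medians spanned 0.00791 log2 units and Lyz2 0.78, so this step could hardly change r. It cannot decide whether array scaling bears on the relation. RefSeq places a second lysozyme gene, Lyc2, beside Lyz2, and whether this probe set also detects its transcript was not tested.

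Gpnmb, a membrane glycoprotein of phagocytes that handle much lipid or debris, stood above the other rats in control rats 5 and 8 and noodle-diet rat 1. It read 6.79, 6.52, 6.45 and 6.47 in noodle-diet rats 1, 4, 7 and 13, and 6.55, 7.20, 6.86, 6.54 and 6.47 in control rats 2, 5, 8, 11 and 14. Control rat 5 was highest, with control rat 8 and noodle-diet rat 1 next, and the other 6 rats lay within 6.45 and 6.55. Over all 9 rats r was 0.60 with Ogn (rho 0.67, exact permutation p = 0.0826 for r and 0.0589 for rho, adjusted 0.0940 and 0.0589) and 0.58 with Col1a2 (rho 0.67, exact permutation p = 0.0940 and 0.0589, adjusted 0.0940 and 0.0589). Neither passed. Without the same pair of low rats r was 0.53 (exact permutation p = 0.211, adjusted 0.237) and 0.51 (exact permutation p = 0.237, adjusted 0.237). Without control rat 5 r rose to 0.80 with Ogn (exact permutation p = 0.0101, adjusted 0.0202) and 0.73 with Col1a2 (exact permutation p = 0.0264, adjusted 0.0397), and both then passed. That rat lay 0.47 above the line on Col1a2, and control rat 2, high in Col1a2 but not in Gpnmb, lay farthest below it (-0.24).

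C3 had the widest range of the members. It read 7.15, 6.20, 7.13 and 6.82 in noodle-diet rats 1, 4, 7 and 13, and 7.35, 7.61, 7.36, 6.87 and 6.45 in control rats 2, 5, 8, 11 and 14. Control rat 5 was highest again, and noodle-diet rat 4 was lowest although control rats 11 and 14 were lower in the matrix genes. Noodle-diet rat 7 was the opposite case, low in Col1a2 and 0.42 above the line of C3 on Col1a2, while rat 4 lay -0.61 from it. The r of C3 was 0.65 with Ogn (rho 0.67, exact permutation p = 0.0619 for r and 0.0589 for rho, adjusted 0.0928 and 0.0589) and 0.66 with Col1a2 (rho 0.67, exact permutation p = 0.0574 and 0.0589, adjusted 0.0928 and 0.0589), and neither passed. Without control rats 11 and 14 it was 0.54 (exact permutation p = 0.206, adjusted 0.237) and 0.56 (exact permutation p = 0.175, adjusted 0.237). The difference between the coefficients of Lyz2, Gpnmb and C3 was not tested.

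**Figure D1:**
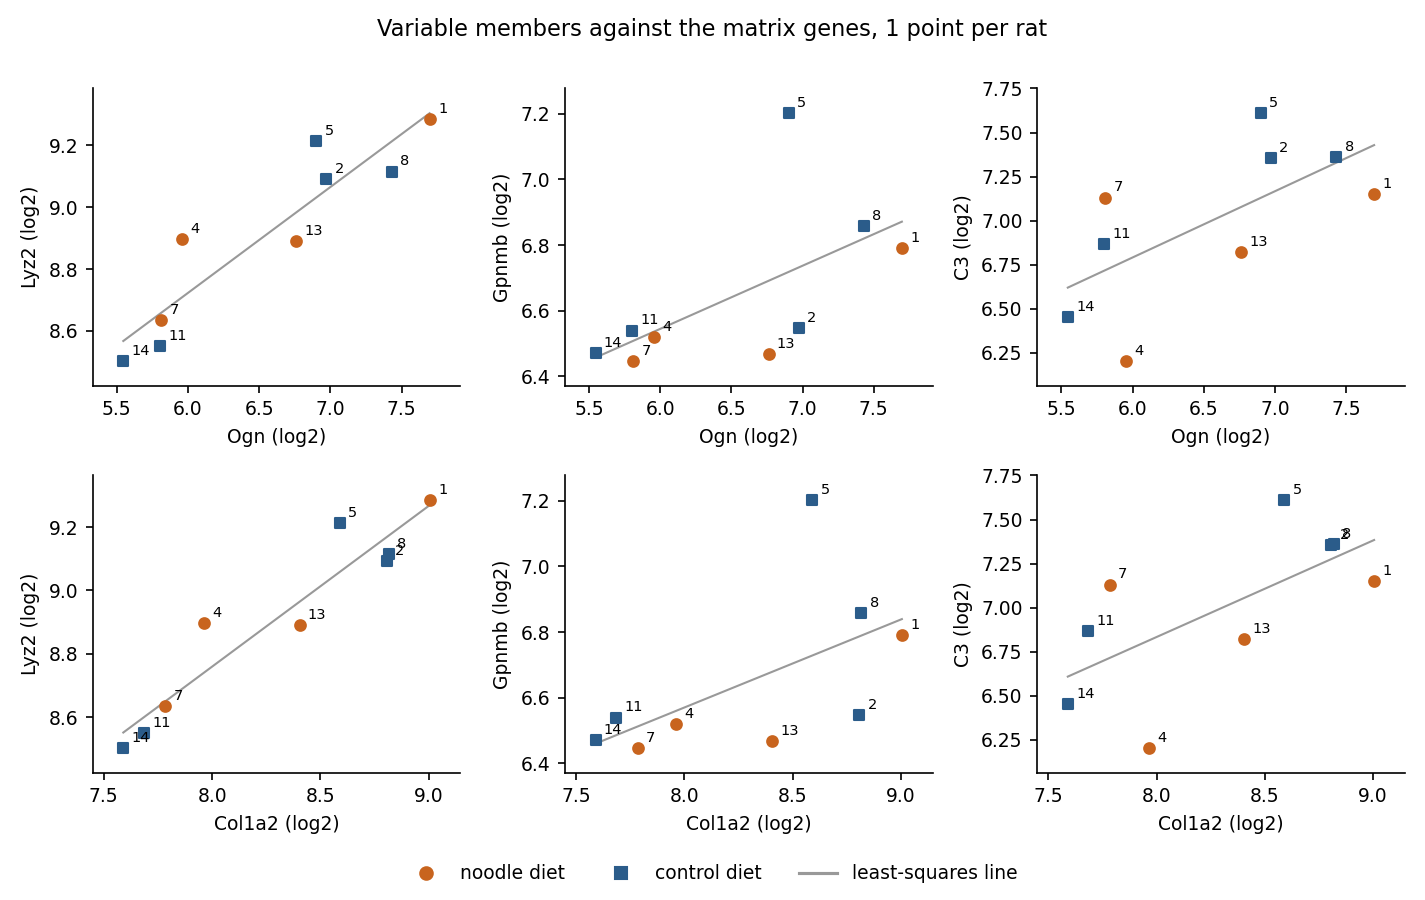
Deposited log2 values of Lyz2, Gpnmb and C3 (vertical) against Ogn (top) and Col1a2 (bottom) in each of the 9 rats, numbered, with circles for the noodle diet, squares for the control diet and a least-squares line. Lyz2 lies close to its line (r = 0.92 and 0.95), control rat 5 stands above the line of Gpnmb, and noodle-diet rats 4 and 7 lie on opposite sides of the line of C3.

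Compared with each other, the 3 variable members gave an r of 0.71 for Lyz2 and Gpnmb (rho 0.77, exact permutation p = 0.0240 for r and 0.0214 for rho, adjusted 0.0659 and 0.0382 over 3 pairs). Gpnmb and C3 gave 0.67 (rho 0.75, exact permutation p = 0.0439 and 0.0255, adjusted 0.0659 and 0.0382), and Lyz2 and C3 gave 0.59 (rho 0.68, exact permutation p = 0.0941 and 0.0503, adjusted 0.0941 and 0.0503). By rank 2 of the 3 pairs passed, and by r 0 did. Without the 2 rats farthest from the median of the first gene of each pair, r was 0.70, 0.33 and 0.50 (exact permutation p = 0.0595, 0.483 and 0.255), and r fell most for Gpnmb and C3, although leaving out the extremes narrows the range of Gpnmb by construction. With the diet means removed r was 0.78, 0.62 and 0.66 (exact permutation within diets, p = 0.0253, 0.0885 and 0.0927).

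The 3 genes most like each variable member were different genes for each, which with 3 picked from 840 says little about the members. S100a4 and Npc2, named for Gpnmb below, also had an r of 0.85 with Lyz2. Likeness was Pearson's r over the 9 rats against 840 other genes with a variable probe set, given as a description with no test. Nearest to Lyz2 were Anxa4 (0.98), a calcium-dependent membrane-binding protein, Serpinf1 (0.97), the secreted pigment epithelium-derived factor, and Plin3 (0.97), a coat protein of lipid droplets. Their r with Col1a2 was 0.89, 0.95 and 0.94. With single rats left out, their likeness to Lyz2 stayed between 0.96 and 0.99.

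Nearest to Gpnmb were Lgals3 (0.95), the galectin of activated phagocytes, S100a4 (0.95), a calcium-binding protein of motile and mesenchymal cells, and Npc2 (0.93), which carries cholesterol inside lysosomes. Lgals3 read 8.07, 7.07, 7.20 and 7.14 in noodle-diet rats 1, 4, 7 and 13, and 7.47, 8.45, 8.08, 7.17 and 7.12 in control rats 2, 5, 8, 11 and 14. Control rat 5 was highest in Gpnmb and in each of these 3 genes. Without it the likeness of Lgals3 was 0.96, that of S100a4 0.87 and that of Npc2 0.80. Noodle-diet rat 1 and control rat 8 then stood apart in both Gpnmb (6.79 and 6.86) and Lgals3. The other rats lay within 6.45 and 6.55 in Gpnmb and within 7.07 and 7.47 in Lgals3, and a relation among them was not tested.

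Nearest to C3 were Grn (0.94), which encodes the lysosomal protein progranulin, Fcgr2b (0.90), the inhibitory receptor for IgG, and Cp (0.89), the copper-carrying ferroxidase ceruloplasmin. Grn read 8.76, 8.60, 8.74 and 8.72 in noodle-diet rats 1, 4, 7 and 13, and 8.90, 8.91, 8.84, 8.69 and 8.66 in control rats 2, 5, 8, 11 and 14. Control rat 5 was highest and noodle-diet rat 4 lowest in C3 and in each of these 3 genes. With single rats left out the likeness of the 3 genes stayed between 0.85 and 0.96. Their r with Col1a2 was 0.71, 0.80 and 0.85.

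**Figure D2:**
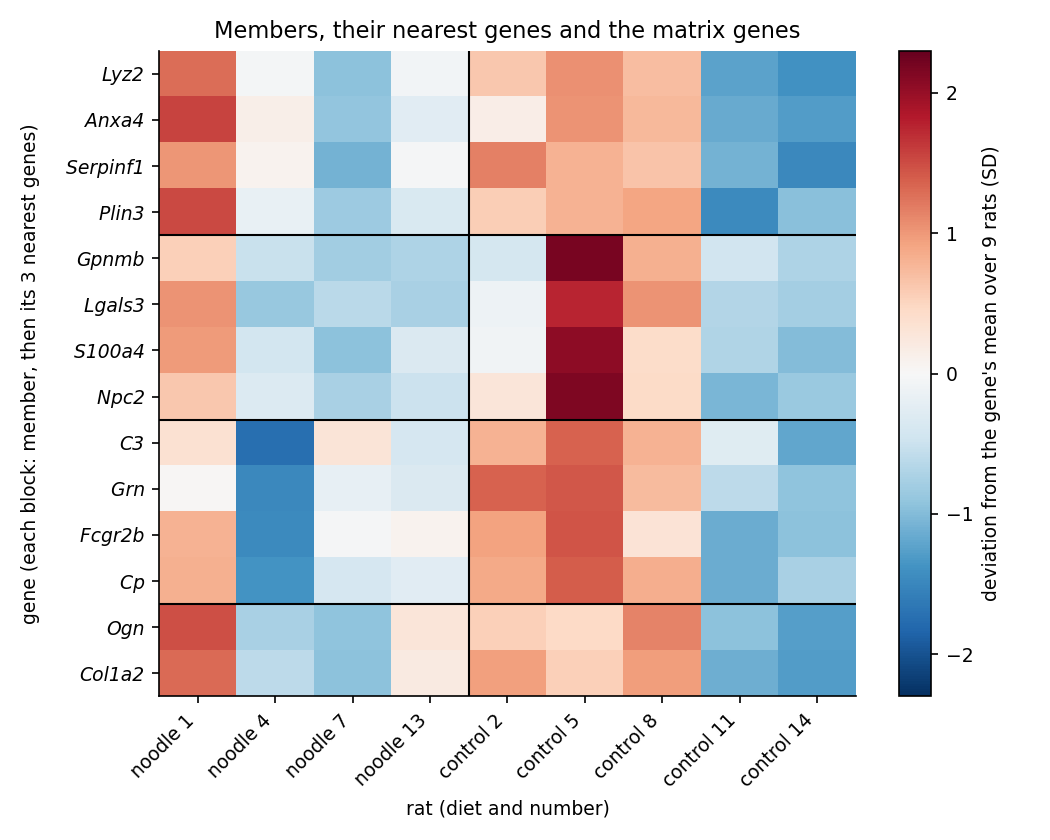
Deviation of each gene from its own mean over the 9 rats, in SD, for the 3 variable members, the 3 genes nearest to each, and Ogn and Col1a2 (rows), by rat (columns, noodle diet left of the line). Control rat 5 is the highest rat of the Gpnmb and C3 blocks, noodle-diet rat 4 is the lowest of the C3 block, and in the Lyz2 block, as in Ogn and Col1a2, control rats 11 and 14 and noodle-diet rat 7 are low.

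Cd163, the haemoglobin scavenger receptor, read 5.7228 to 5.7231 on the noodle diet and 5.7228 to 5.7240 on the control diet. Mrc1 read 6.3690 to 6.3696 and 6.3689 to 6.3695, and Cd68, a lysosomal glycoprotein of macrophages, 6.4147 to 6.4153 and 6.4149 to 6.4151. The groups overlapped in each. On deposited values Mrc1 had an r of 0.92 with Ogn and 0.91 with Col1a2, which 0.286% and 0.296% of compressed probe sets also reached or passed at 0.9. With every array set to a common median its r became -0.98 with both, and Cd163 and Cd68 went from 0.54 and 0.55 with Ogn to -0.96 and -0.98. The sign of each of these relations thus depended on the scaling. The array medians spanned 0.00791 log2 units, more than any of the 3 genes, and had an r of 0.99 with Ogn and 0.98 with Col1a2. Subtracting them leaves mostly the reversed medians in any probe set with so small a range. The negative r thus follows from the arithmetic and says nothing particular to these genes.

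**Figure D3:**
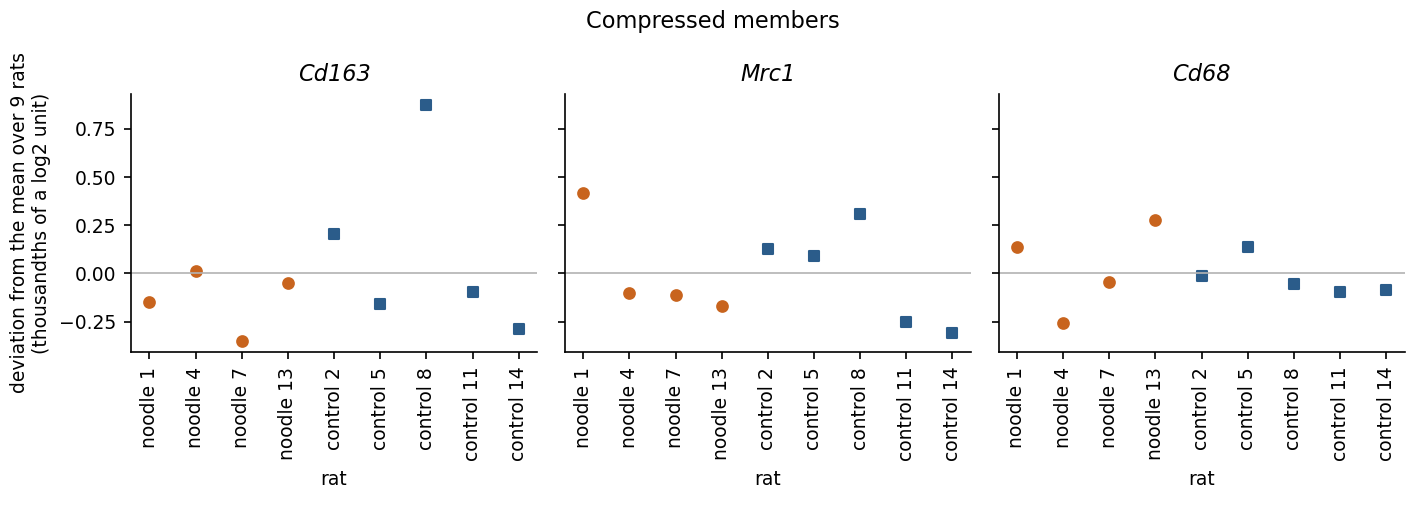
Deviation of Cd163, Mrc1 and Cd68 from the mean over the 9 rats, in thousandths of a log2 unit, by rat (circles noodle diet, squares control diet). All points lie within 0.00122 log2 units for Cd163, 0.000732 for Mrc1 and 0.000527 for Cd68.

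Between diets no member differed beyond the spread between rats. Lyz2 averaged 8.93 ± 0.27 (SD, n = 4) on the noodle diet and 8.89 ± 0.34 (SD, n = 5) on the control diet, a difference of 0.032 log2 units (SE 0.20, 95% interval -0.43 to 0.49). Gpnmb averaged 6.56 ± 0.16 and 6.72 ± 0.31, a difference of -0.17 (SE 0.16, 95% interval -0.54 to 0.21). C3 averaged 6.83 ± 0.44 and 7.13 ± 0.46, a difference of -0.30 (SE 0.29, 95% interval -0.97 to 0.37). For Lyz2 2 of 4 noodle-diet rats lay above the control mean, for Gpnmb 1 and for C3 2. The differences of Cd163, Mrc1 and Cd68 were -0.00024 (-5.1e-05 without control rat 8), 1.8e-05 and 4.8e-05. By limma with Benjamini-Hochberg adjustment over all probe sets, 0 of the 6 members passed, as did 0 of 31042 probe sets (0%), and each member's adjusted p rounded to 1. Without adjustment, 0 members and 2.29% of all probe sets had a limma p under 0.05, and the diets did not overlap in 0 members and in 0.567% of all probe sets.

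Ogn and Col1a2 did not separate the diets either, with differences of 0.025 (SE 0.53) and -0.0092 (SE 0.37). With Col1a2 as a covariate, an alternative added after the values had been seen, the differences of Lyz2, Gpnmb and C3 were 0.037 (SE 0.066), -0.16 (SE 0.14) and -0.30 (SE 0.22). Single rats moved the differences of the members: without control rat 5 that of Gpnmb was -0.047, and without noodle-diet rat 4 that of C3 was -0.094. For Lyz2 the sign turned when noodle-diet rat 1 (-0.088), or control rat 11 (-0.054) or 14 (-0.066), was left out.

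**Figure D4:**
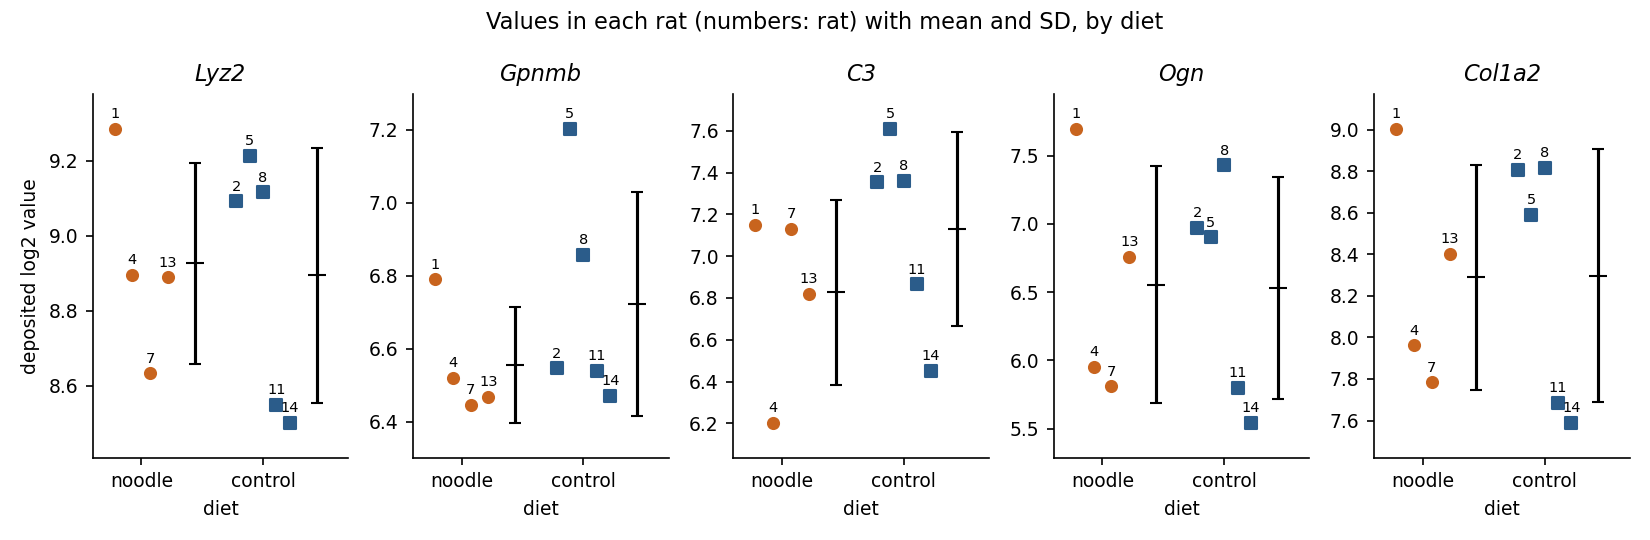
Deposited log2 values of Lyz2, Gpnmb, C3, Ogn and Col1a2 in each rat (points, numbered), by diet, with the mean and SD of the 4 noodle-diet and 5 control rats beside them. In each panel the diets overlap, and control rats 11 and 14 lie at or near the bottom in Lyz2, Ogn and Col1a2.

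Among 13 border macrophage markers 11 were measured and 2 were variable. Colec12, a scavenger receptor also made by cells other than macrophages, read 6.88 ± 0.55 against 6.83 ± 0.45 (noodle against control) and had an r of 0.94 with Lyz2 and 0.98 with Ogn. Maf, a transcription factor of tissue macrophages and of other lineages, read 7.80 ± 0.33 against 7.79 ± 0.15, with 0.83 and 0.85. Lyve1, a hyaluronan receptor, ranged over 0.0167, and the markers Pf4, F13a1, Folr2, Stab1, Ms4a7 and Clec10a were compressed like Cd163 and Mrc1.

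Of 17 lysosome and phagocyte genes all were measured and 7 were variable. Besides Lyz2, Gpnmb, Lgals3 and Npc2, these were Spp1 (osteopontin), Lamp1 and Lamp2 (lysosomal membrane proteins). Spp1 had an r of 0.88 with Gpnmb and 0.90 with Lyz2, Lamp1 of 0.59 and 0.60, and Lamp2 of 0.22 and 0.43. The cathepsin genes Ctsb, Ctsd, Ctss and Ctsz were compressed. Of 20 complement components and regulators 13 were measured and 3 were variable. Serping1, the C1 inhibitor, followed Ogn (r = 0.98) and had an r of 0.69 with C3. C1s, a protease of the C1 complex, had an r of 0.47 with C3 and 0.78 with Lyz2, and the receptor genes C3ar1 and Itgam were compressed.

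Values of meningeal fibroblast markers followed those of Lyz2 across rats, and their part in the members' values was not tested. Of 18 meningeal fibroblast markers 17 were measured and 16 were variable. Their median r was 0.88 with Lyz2, 0.66 with C3 and 0.55 with Gpnmb, beside 0.34, 0.22 and 0.30 over all variable probe sets. Their summed log2 value ran from 115.2 to 132.6 on the noodle diet and from 114.0 to 130.9 on the control diet. Besides Ogn and Col1a2, the solute carriers Slc47a1 and Slc22a6 and the growth factor gene Igf2 had an r of 0.89, 0.88 and 0.93 with Lyz2. The 16 variable markers, Ogn and Col1a2 included, ran from 0.69 (Dcn) to 0.95 (Col1a2) with Lyz2. The astrocyte marker Gfap had a higher r with Lyz2 (0.96) than any of them.

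Homeostatic microglia markers sat nearer to C3 than to Lyz2 by their medians, a difference that was not tested. Of 17 markers 14 were measured and 6 were variable, with a median r of 0.77 with C3, 0.62 with Gpnmb and 0.44 with Lyz2. C1qa, a chain of the complement protein C1q, had an r of 0.84 with C3, Tyrobp, the adaptor of microglial receptors, 0.80, Tmem119 0.77 and P2ry12, the purine receptor of resting microglia, -0.25. With Lyz2, C1qa had an r of 0.39 and Tmem119 of 0.25. Tyrobp and P2ry12 went against the medians, with a higher r with Lyz2 (0.86 and 0.45) than with C3. C1qa read 8.47 ± 0.17 against 8.73 ± 0.16 (difference -0.26), and its limma p adjusted over all probe sets rounded to 1. Without adjustment its limma p was 0.0379. Of the 14 markers 2 had an unadjusted limma p under 0.05, C1qa and the compressed Trem2 (0.0078), beside 2.29% of all probe sets. Of the 6 variable markers, C1qa, C1qb, C1qc and Tmem119 were lowest in noodle-diet rat 4 and highest in control rat 5, as C3 was. Tyrobp was highest in control rat 5 too but lowest in control rat 11, and P2ry12 was highest in noodle-diet rat 4 (8.20) and lowest in noodle-diet rat 7 (7.52). C1qb and C1qc are named after their values were seen. The summed log2 value of the microglia markers ran from 102.6 to 103.9 on the noodle diet and from 102.95 to 104.9 on the control diet.

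Markers of blood cells were mostly compressed, as were 95.9% of all probe sets. Of 10 monocyte and neutrophil markers 8 were measured, and Plac8 alone was variable (r = 0.90 with Lyz2 and 0.94 with Ogn), while S100a8, S100a9 and Ccr2 were compressed. Of 8 lymphocyte markers 6 were measured, among them Cd3e and Nkg7, and 0 were variable. The summed log2 value of the monocyte and neutrophil list ran from 47.9 to 48.7 on the noodle diet and from 47.7 to 48.8 on the control diet. Hbb, a haemoglobin chain and the only variable gene of 3 erythroid genes measured, had an r of 0.80 with C3 and read 10.87 ± 0.31 against 11.21 ± 0.40.

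Of the 8 astrocyte markers measured 5 were variable, and Gfap, the filament protein of astrocytes, had an r of 0.96 with Lyz2, 0.82 with Gpnmb and 0.71 with C3. The other variable astrocyte markers had an r with Lyz2 of 0.34 (S100b) to 0.73 (Aqp4). Of 12 endothelial and pericyte markers measured 2 were variable, Vtn (r = 0.80 with Lyz2) and Rgs5 (-0.76 with C3, over a range of 0.0704). Of 12 hypothalamic peptide genes 11 were measured and 8 were variable, among them Oxt, Avp, Hcrt and Trh, which mark the labelled tissue. Pomc, Crh and Ghrh were compressed. Over the 8 variable peptide genes the median r was -0.24 with Lyz2 and -0.22 with C3, but the genes differed in sign. With Lyz2 r ran from -0.61 (Oxt) to 0.60 (Cartpt), and with C3 from -0.41 (Oxt) to 0.40 (Npy).

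In the diet comparison 0 genes of any of these 11 lists passed by limma in either direction. Of the 17 lysosome and phagocyte genes 12 were lower on the noodle diet (median -2.5e-05), of the 11 border macrophage markers 7 (-2.3e-05), of the 13 complement genes 8 (-1.9e-05) and of the 14 microglia markers 12 (-8.7e-05), beside 16129 of 31042 probe sets (median -4.6e-06). Most genes of these lists are compressed (10, 8, 10 and 8), and differences that small moved with the scaling. With a common array median that of Mrc1 went from 1.8e-05 to 7.3e-05 and that of Cd68 from 4.8e-05 to 0.000103. These counts and medians are therefore given as values only. Among variable members of these lists, 5 of 7, 0 of 2, 2 of 3 and 5 of 6 were lower, with medians of -0.049, 0.031, -0.041 and -0.15, beside 588 of 1223 variable probe sets (median 0.0035). Of the 17 meningeal fibroblast markers 11 were lower (median -0.045) and of the 8 astrocyte markers 1 (median 0.0046).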

How the data were processed

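Per the labels' protocols, biotin-labelled cRNA was made from 100 ng of TRIzol-extracted, column-cleaned RNA. What the authors deposited is a single table of log2 values, whose scale was read from their range (5.13 to 13.7). Summarization and normalization: not given in the sources used here. After 57 manufacturer controls were left out, 31042 probe sets remained. The platform annotation gave 20826 of them 1 symbol, 436 several (not used for names) and 9780 none. Diets were compared with limma 3.58.1 (R 4.3.3; lmFit, eBayes with an intensity trend, 2-sided) across all probe sets, noodle diet minus control, with Benjamini-Hochberg adjustment and a threshold of 0.05; the number of arrays limits the precision. Relations across rats used Pearson's r and Spearman's rho with exact permutation of all 362880 pairings (Python 3.11.15), adjusted over 3 members x 2 matrix genes. Both methods were tested on simulated data. For Ogn, Col1a2 and list genes the probe set of largest range was used. Text names the members, up to 4 genes of largest range per list (others from the lists were added after their values were seen) and the 3 nearest genes of each variable member. Alternatives were quantile normalization, a common array median, no trend, a filter at the 20th percentile of means, array weights, Col1a2 as a covariate, and leaving out rats. Members and lists were chosen with earlier results of these data known. Start regions come from RefSeq (GRCr8), where all 6 members were matched by gene number.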

Additional observations from a re-analysis of the deposited data

Results flagged for a closer look

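Among 58 variable probe sets (members, list genes and nearest genes), 116 groups of 4 or 5 rats were checked for an animal standing apart within its diet, and 4 had one, where chance gives about 1 in 20 (5.8 groups). Lgals3, the gene nearest to Gpnmb, read 8.07 in noodle-diet rat 1, with the other noodle-diet rats between 7.07 and 7.20. That rat was also highest of its diet in Lyz2, Gpnmb, C3, Ogn and Col1a2. In the same rat Lum, a meningeal matrix proteoglycan gene, read 7.66, with the others between 6.89 and 6.97. Oxt there read 8.66, with the others between 10.21 and 10.52, and Avp read 10.49, with the others between 11.64 and 11.84.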

How the results depend on the processing

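Lyz2 kept its sign and its call with Ogn and Col1a2 in all alternatives, with r between 0.87 and 0.97 and adjusted p (exact permutation) between 0.000612 and 0.0298. C3 stayed on the other side of the threshold throughout (adjusted p, exact permutation, 0.0589 to 0.237). With single rats left out, 1 to 2 members passed with Ogn and 1 to 2 with Col1a2; the second was Gpnmb, without control rat 5. Over 15 alternative limma fits 0 probe sets passed between diets. The diet difference of Mrc1 turned negative with array weights (-3.8e-05) and quantile normalization (-1.3e-05); the cause was not tested. With single rats left out it ran from -0.00012 to 9.7e-05, that of Lyz2 from -0.088 to 0.13 and that of Cd68 from -3.4e-05 to 0.00014. That of Cd163 ran from -0.00034 to -5.1e-05 (the latter without control rat 8) and was -0.00064 with quantile normalization. C3 ran from -0.47 to -0.094 and Gpnmb from -0.24 to -0.047. The filter on low means leaves out Cd163. The covariate, the common median for the relations, the further Ogn and Col1a2 probe sets, the pairs of members and the nearest genes with rats left out were added after seeing the data. No paired analysis was done because the labels used here name no pairs of rats across the diets. Signal over background could not be judged from the deposited values.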
